A study of Mus musculus with 18 samples.

Results

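Bile acid handling was followed in the liver through 10 genes, namely *Cyp7a1*, *Cyp8b1*, *Cyp27a1*, *Cyp7b1*, *Baat*, *Slc10a1*, *Abcb11*, *Abcb4*, *Nr1h4* and *Nr0b2*. They were taken by symbol, for their roles in synthesis, conjugation, transport and sensing of bile acids, and make up 10 of the 23352 gene symbols in each expression table. Liver poly(A) RNA came from 18 male mice aged 20 weeks and fed a high-fat diet (HFD), 9 of them wild-type (WT) C57BL6 and 9 *Gpr180*KO, and each mouse gave 1 library. The *Gpr180*KO mice carry a homozygous CRISPR/Cas9 deletion from intron 5 to intron 6, which removes exon 6 in every tissue and was made in C57BL/6J eggs, so that a change in liver RNA need not begin in the liver, and both groups ate HFD. Mice are named by their titles, which come in 2 styles, style 1 (such as W317 and KO319, 4 mice per genotype) and style 2 (such as W131 and KO51, 5 per genotype). What the styles stand for is not given in the labels.

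Hepatocytes turn cholesterol into bile acids by a classic route, opened by *Cyp7a1* in the endoplasmic reticulum, and by an alternative route, opened by *Cyp27a1* in mitochondria and continued by *Cyp7b1*. *Cyp8b1* adds the hydroxyl group that makes cholic acid. The finished acids are joined to taurine or glycine, secreted into bile, and taken up again from portal blood. The nuclear receptor FXR (*Nr1h4*) senses them and induces the repressor SHP (*Nr0b2*), which lowers transcription of *Cyp7a1*, and the export pump *Abcb11*.

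The promoters of the export pump and of SHP are shown for the short motifs they carry, which differ between the 2. RefSeq promoters (GRCm38.p6, the build of the files) were found for 7 of the 10 members, with 8 start sites, and not for *Cyp7a1*, *Cyp7b1* and *Baat*. The 250 bases before each start were searched on both strands for AGGTCA, the half-site of many nuclear receptors, for TCAAGG, the core of the motif of the nuclear receptor LRH-1 (*Nr5a2*), and for an inverted repeat of AGGTCA with 1 base between the arms and at most 1 mismatch, the type of element that FXR binds with RXR. The inverted repeat can overlap a half-site. Of 32851 promoters, 14% held AGGTCA, 12.5% held TCAAGG and 0.0791% (26 promoters) held the inverted repeat. The *Abcb11* promoter (chr2:69342617-69342866, minus strand) held the inverted repeat from 63 to 51 bases before the start, in capitals in the first sequence. The *Nr0b2* promoter (chr4:133553126-133553375, plus strand) held TCAAGG at 2 positions, in capitals in the second, the first of them 68 to 63 bases before the start. Neither AGGTCA nor the inverted repeat lay in the *Nr0b2* window. Both sequences are written 5′ to 3′.
Abcb11 promoter: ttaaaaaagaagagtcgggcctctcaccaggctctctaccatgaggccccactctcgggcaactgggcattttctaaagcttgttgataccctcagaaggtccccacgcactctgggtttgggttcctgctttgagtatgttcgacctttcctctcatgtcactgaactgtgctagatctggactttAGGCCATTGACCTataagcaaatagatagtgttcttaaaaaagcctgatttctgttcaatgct
Nr0b2 promoter: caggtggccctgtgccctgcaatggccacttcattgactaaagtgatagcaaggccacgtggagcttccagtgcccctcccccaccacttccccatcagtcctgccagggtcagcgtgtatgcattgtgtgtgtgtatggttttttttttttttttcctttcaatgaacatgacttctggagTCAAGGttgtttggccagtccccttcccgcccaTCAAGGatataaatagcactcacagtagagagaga
AGGTCA also lay in an internal *Nr1h4* promoter and in 1 of the 2 *Slc10a1* promoters. The windows of *Cyp8b1*, *Cyp27a1* and *Abcb4* held none of the 3 motifs. A match of letters is a description of the sequence and was not set against any measure of binding.

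Expression was given as FPKM, the reads of a gene scaled to transcript length and to the mapped reads of the library, so levels of different genes can be set side by side approximately. Of 180 member values 104 lay above their own deposited upper bound, so close ranks of genes are uncertain. Sums of FPKM over a library ranged from 554796 to 718746, with KO51 the highest. Relative depth, read from the FPKM steps of genes with few reads, lay between 60.7% and 100% of that of W317 in WT livers and between 44.4% and 93.3% in *Gpr180*KO livers. The targeted gene *Gpr180* was at 6.79 ± 1.99 FPKM in WT and 1.602 ± 0.371 FPKM in *Gpr180*KO livers (SD, n = 9), and the highest *Gpr180*KO liver (1.99) lay below the lowest WT liver (4.46). Hepatocyte markers were present in every liver, for instance *Ttr*, the gene of the thyroxine carrier transthyretin, at 3153 FPKM or more. In limma over 10835 genes, 464 genes were lower (4.28% of the genes tested) and 49 higher (0.452%) in *Gpr180*KO livers at an adjusted p under 0.05. The median log2 fold change of all genes was -0.13 and 76.9% of genes had a lower mean. With median-of-ratios scaling between libraries the median was 0.02 and 44.9% had a lower mean, so directions of small differences depend on the scaling.

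Of the 10 members, 1 was lower (*Nr1h4*) and 1 was higher (*Cyp7b1*) in *Gpr180*KO livers, beside 4.28% and 0.452% of all genes tested. All 10 passed the filter of a mean FPKM of at least 1. The median log2 fold change of the members was -0.02, and no member separated the genotypes without overlap, as 25 genes of the table did (0.231%). This share is for 9 livers against 9. Fewer livers separate more easily, and within a title style (4 or 5 per genotype) the share over all genes was not counted. In WT livers, the order of mean FPKM was *Slc10a1* (375), *Cyp8b1* (315), *Cyp27a1* (206), *Baat* (135), *Abcb11* (128), *Abcb4* (109), *Nr1h4* (56.2), *Cyp7b1* (35.4), *Nr0b2* (29.5) and *Cyp7a1* (18.3). Ranges of neighbours in this order overlapped, except between *Cyp27a1* and *Baat* and between *Abcb4* and *Nr1h4*. In *Gpr180*KO livers *Cyp7b1* stood above *Nr1h4* and *Abcb11* above *Baat*, and the order was otherwise that of WT.

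*Cyp7a1* (chr4:6265612-6275631), the cholesterol 7α-hydroxylase that limits the rate of the classic route, was 8.30, 17.3 and 33.5 FPKM (lowest, median and highest) in WT and 4.56, 10.04 and 32.8 FPKM in *Gpr180*KO livers. Of the 9 *Gpr180*KO livers, 8 lay below the WT mean and 3 below the lowest WT liver, while KO54 lay near the highest WT liver. The means were 18.3 ± 8.45 and 12.2 ± 8.59 FPKM (SD, n = 9), a log2 fold change of -0.68 ± 0.33 (SE), which did not pass the test (limma, adjusted p = 0.231). Its residual spread exceeded that of 96.4% of the genes tested, and the difference was -0.09 in style 1 and -1.15 in style 2.

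*Cyp8b1* (chr9:121914356-121916305), the sterol 12α-hydroxylase of the classic route, was 225, 316.9 and 381 FPKM in WT and 130, 292 and 364 FPKM in *Gpr180*KO livers. KO53, KO54 and KO56 (130, 149 and 173 FPKM) lay below the lowest WT liver, and the other 6 lay at 270 FPKM or more, within the WT range. The log2 fold change of -0.31 ± 0.19 (SE) did not pass the test (adjusted p = 0.354), with -0.07 in style 1 and -0.50 in style 2.

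*Cyp27a1* (chr1:74713574-74737890), the mitochondrial sterol 27-hydroxylase that opens the alternative route, was 156.2, 196 and 261 FPKM in WT and 188, 251 and 324 FPKM in *Gpr180*KO livers. Among *Gpr180*KO livers 7 lay above the WT mean and 3 above the highest WT liver. Its log2 fold change of 0.25 ± 0.11 (SE) did not pass the test (adjusted p = 0.190), and was 0.26 in style 1 and 0.24 in style 2.

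*Cyp7b1* (chr3:18071950-18243338), the oxysterol 7α-hydroxylase of the alternative route, rose in *Gpr180*KO livers. It was 22.0, 32.6 and 56.8 FPKM in WT and 32.3, 56.6 and 144 FPKM in *Gpr180*KO livers, with 8 of 9 above the WT mean and 4 above the highest WT liver. The highest was KO53, and KO56 was the only one below the WT mean. The means were 35.4 ± 10.2 and 65.7 ± 32.8 FPKM (SD, n = 9), so that the *Gpr180*KO mean was 185% of WT. The log2 fold change was 0.81 ± 0.23 (SE; limma, adjusted p = 0.0464), or 0.93 relative to the median gene. In style 1 alone the difference was 0.61 (adjusted p = 0.0360), and in style 2 it was 0.97 (adjusted p = 0.197). The 2 genotypes did not overlap in style 1, with 4 livers each and no share over all genes counted. The call was a narrow one, and was lost with TPM scaling (0.77, adjusted p = 0.0542). Of 18 fits that left out 1 liver each, 6 kept it, and it was lost without W317, W318, W319, W320, W133, W156, KO320, KO322, KO51, KO52, KO53 or KO54 in turn, with log2 fold changes from 0.65 without KO53 to 0.92 without KO56, and adjusted p between 0.0295 and 0.102.

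**Figure D1:**
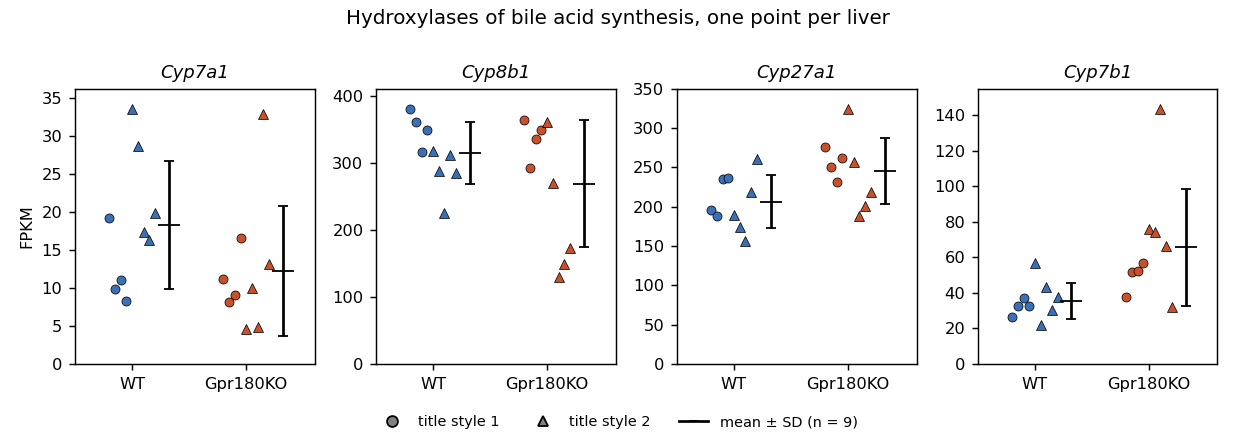
FPKM of the 4 hydroxylases in each liver (y axis from 0, 1 panel per gene), with WT in blue and *Gpr180*KO in red, circles for title style 1, triangles for style 2, and black bars for the mean and SD of 9 livers. *Cyp7b1* reached 144 FPKM in 1 *Gpr180*KO liver against a WT maximum of 56.8, and 3 style 2 *Gpr180*KO livers lay below the WT range of *Cyp8b1*.

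Setting the routes against each other within a liver removes any scaling between libraries. The ratio of *Cyp7a1* to *Cyp7b1* was 0.254, 0.531 and 1.30 (lowest, median and highest) in WT and 0.0336, 0.172 and 0.493 in *Gpr180*KO livers. All 9 *Gpr180*KO livers lay below the WT mean of 0.549, which lies above the WT median, and 5 lay below the lowest WT liver. The ratio of *Cyp8b1* to *Cyp27a1* was 1.09, 1.48 and 1.94 in WT and 0.690, 1.11 and 1.45 in *Gpr180*KO livers. *Cyp8b1* exceeded *Cyp27a1* in every WT liver, and *Cyp27a1* exceeded *Cyp8b1* in 3 *Gpr180*KO livers.

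Over the 4 genes together, the mean log2(FPKM + 0.1) of the classic pair minus that of the alternative pair was -0.21 ± 0.41 in WT and -1.24 ± 0.69 in *Gpr180*KO livers (SD, n = 9). Of the 9 *Gpr180*KO livers, 7 lay below the lowest WT liver (-0.70), and the highest was KO319 at -0.67. The genotypes thus differed by -1.02, with the classic pair lower by a mean difference of -0.50 and the alternative pair higher by 0.53, which is subtracted. Unlike the score, these 2 parts depend on the scaling between libraries, and the median gene was at -0.13. With median-of-ratios scaling the score differed by -1.03, while *Cyp7a1* was at -0.53, *Cyp8b1* at -0.16, *Cyp27a1* at 0.40 and *Cyp7b1* at 0.96. In style 1 the difference in this score was -0.52, the pairs themselves differing by -0.08 (classic) and 0.43 (alternative). The 4 livers of each genotype did not overlap in the alternative pair, with no share over all genes counted for groups of this size. In style 2 the score differed by -1.43, without overlap between the 5 livers of each genotype, again with no such share counted. The pairs there differed by -0.83 (classic) and 0.60 (alternative). KO53, with the lowest *Cyp8b1* and the highest *Cyp7b1* of all livers, had the lowest value (-2.70), and without it the difference was -0.84. No p was computed for this score, since its genes were chosen with results of these data known. Each of the 4 genes was counted for 1 route only, and bile acid production by either route was not measured.

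**Figure D2:**
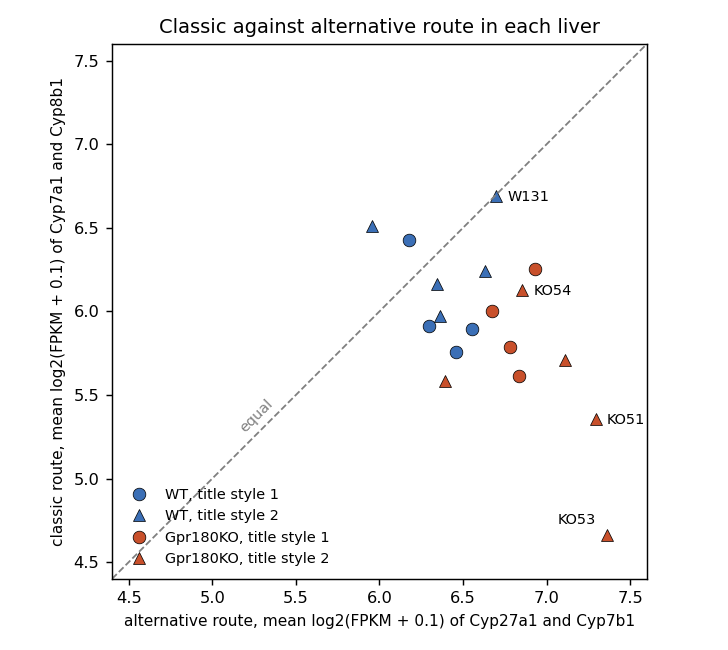
Mean log2(FPKM + 0.1) of *Cyp7a1* and *Cyp8b1* (y axis) against that of *Cyp27a1* and *Cyp7b1* (x axis), 1 point per liver, WT in blue and *Gpr180*KO in red, circles for title style 1 and triangles for style 2, with a dashed line of equality. All 9 *Gpr180*KO livers lie below the line, KO53 farthest from it at -2.70. WT livers lie between -0.70 and 0.55 of it, with W317 and W133 alone above it.

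*Baat* (chr4:49489418-49506558), which joins bile acids to taurine or glycine, was among the least variable genes of the table, with a residual spread above that of 0.665% of the genes tested. It was 135 ± 6.49 FPKM in WT and 141 ± 11.9 FPKM in *Gpr180*KO livers (SD, n = 9), a log2 fold change of 0.06 ± 0.06 (SE; adjusted p = 0.603). Among *Gpr180*KO livers 2 lay above and 1 below the WT range.

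*Slc10a1* (chr12:80953185-80968079), the sodium-coupled uptake carrier NTCP of the sinusoidal membrane, was 240, 348 and 640 FPKM in WT and 329, 382 and 501 FPKM in *Gpr180*KO livers. The WT livers W156 and W157 held the 2 highest values and every *Gpr180*KO liver lay within the WT range. Genotypes differed by a log2 fold change of 0.13 ± 0.17 (SE; adjusted p = 0.666), with 0.36 in style 1 and -0.06 in style 2.

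*Abcb11* (chr2:69238282-69342616), the bile salt export pump BSEP of the canalicular membrane, was 108, 122 and 150 FPKM in WT and 88.0, 158 and 201 FPKM in *Gpr180*KO livers. Of the 9 *Gpr180*KO livers, 8 lay above the highest WT liver, and KO51 lay below the lowest. Over all 18 livers the log2 fold change of 0.27 ± 0.12 (SE) did not pass the test (adjusted p = 0.192). Without KO51 it was 0.37 and passed (limma, adjusted p = 0.0143), the only 1 of 18 fits without 1 liver to do so. Elsewhere adjusted p was up to 0.321 (without W133). KO51 was the lowest liver for this gene, so leaving it out raises the difference by construction and adds no support for a rise. With median-of-ratios scaling, which keeps KO51, the log2 fold change was 0.42 and passed the test, alone (adjusted p = 0.0471) or with title style as a block (adjusted p = 0.0335). It did not pass with 75th percentile scaling (0.39, adjusted p = 0.0718), TPM scaling (0.23, adjusted p = 0.365) or the block alone (0.27, adjusted p = 0.151). The difference was 0.27 in style 1 and 0.26 in style 2. The 4 livers of each genotype did not overlap in style 1, with no share over all genes counted.

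*Abcb4* (chr5:8893721-8959226), the canalicular phospholipid floppase MDR2, was 77.4, 109 and 125 FPKM in WT and 80.9, 95.5 and 129 FPKM in *Gpr180*KO livers. The lowest WT value was that of W157, apart from the other 8. Its log2 fold change was -0.10 ± 0.11 (SE; adjusted p = 0.581), 0.06 in style 1, -0.23 in style 2 and 0.05 with median-of-ratios scaling, so that no direction can be given.

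*Nr1h4* (chr10:89454234-89533622), the bile acid receptor FXR, was lower in *Gpr180*KO livers. It was 48.4, 57.3 and 62.2 FPKM in WT and 34.8, 45.9 and 51.3 FPKM in *Gpr180*KO livers, with all 9 below the WT mean and 7 below the lowest WT liver. The means were 56.2 ± 5.23 and 43.8 ± 6.29 FPKM (SD, n = 9), so that the *Gpr180*KO mean was 77.9% of WT. The log2 fold change was -0.37 ± 0.09 (SE; limma, adjusted p = 0.0281), or -0.24 relative to the median gene. With median-of-ratios scaling it was -0.21 and did not pass the test (adjusted p = 0.232), nor with 75th percentile scaling (-0.25, adjusted p = 0.147), while with TPM scaling it passed (-0.40, adjusted p = 0.0147). The call was also lost without W317, W133, KO53 or KO54 in turn (adjusted p up to 0.0670) and kept in the other 14 such fits.

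Within title styles, the log2 fold change of *Nr1h4* was -0.13 in style 1 and -0.56 in style 2. The 5 livers of each genotype did not overlap in style 2, with no share over all genes counted. A difference between the styles was not shown, since the interaction of genotype and style for *Nr1h4* had an unadjusted p of 0.0123 in limma and did not pass after adjustment over all genes (adjusted p = 0.589). *Nr1h4* was the only member with an unadjusted p under 0.05 for the interaction, and no gene of the table passed after adjustment, against 833 genes at an unadjusted p under 0.05. KO53, KO54 and KO56, the 3 livers with the lowest *Cyp8b1*, also had the lowest *Nr1h4* (34.8, 35.7 and 36.9 FPKM), and the other 6 *Gpr180*KO livers were at 45.7 FPKM or more.

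*Nr0b2* (chr4:133553390-133556536), the FXR target SHP, was 16.6, 31.0 and 42.7 FPKM in WT and 11.4, 31.0 and 41.9 FPKM in *Gpr180*KO livers. The groups overlapped almost entirely, with KO322 alone below the lowest WT liver. On the log2 scale the difference was -0.10 ± 0.23 (SE; adjusted p = 0.810), and it turned to 0.05 with median-of-ratios scaling and to 0.05 without KO322.

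**Figure D3:**
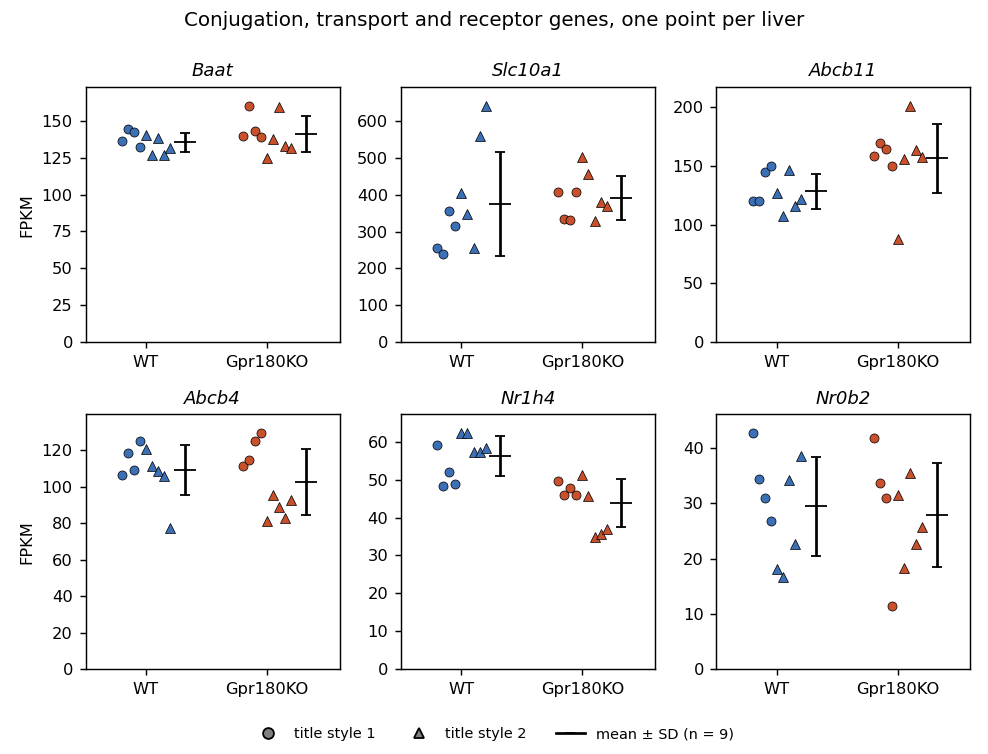
FPKM of *Baat*, *Slc10a1*, *Abcb11*, *Abcb4*, *Nr1h4* and *Nr0b2* in each liver (y axes from 0), with WT in blue and *Gpr180*KO in red, circles for title style 1, triangles for style 2, and black bars for the mean and SD of 9 livers. In *Abcb11*, 8 *Gpr180*KO livers lie above the WT range while KO51 lies under it at 88.0 FPKM, and 7 lie below the WT range of *Nr1h4*.

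**Figure D4:**
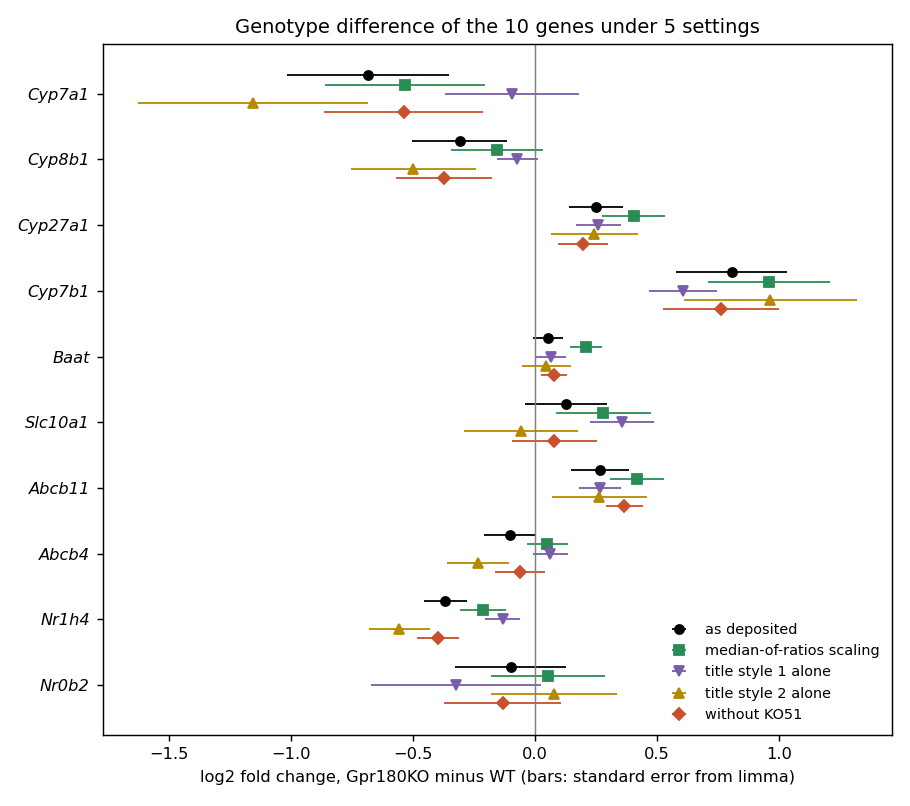
Log2 fold change (x axis, *Gpr180*KO minus WT, bars for the SE from limma) of the 10 members with the values as deposited, with median-of-ratios scaling, in each title style alone and without KO51. *Cyp7b1* lies right of 0 and *Nr1h4* left of it under all 5 settings, *Abcb4*, *Slc10a1* and *Nr0b2* change side, and *Cyp7a1* lies between -1.15 and -0.09.

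The 6 pairs of members that the FXR circuit or a route links were compared across the 18 livers after subtracting each genotype's mean, with a two-sided permutation test of 100000 resamples within genotype. None passed Benjamini-Hochberg adjustment over the 6 pairs. *Nr1h4* and *Abcb11* had the largest correlation (Pearson's r = -0.55, p = 0.0165, adjusted p = 0.0989; Spearman's rho = -0.44, p = 0.0534, adjusted p = 0.320), a negative relation. It was -0.34 in style 1 and -0.81 in style 2, and without KO53 and KO54, the livers farthest from the median of *Nr1h4*, it was -0.44 (adjusted p = 0.485). For *Nr0b2* and *Cyp7a1*, r was -0.49 (p = 0.0525, adjusted p = 0.157) and rho -0.38 (p = 0.126, adjusted p = 0.377), with -0.28 in style 1, -0.55 in style 2, and -0.38 without KO322 and W133. The other 4 pairs lay between -0.22 and -0.02, with adjusted p of 0.811 or more.

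Beside the members, 56 other genes of the pathway were counted in lists for synthesis, transport and regulation. Of these, 49 passed the filter, 1 was lower and 3 were higher, beside 4.28% and 0.452% of all genes tested. At an unadjusted p under 0.05 the numbers were 2 and 7, beside 2128 lower and 275 higher of all 10835 genes tested. The median log2 fold change of the 49 genes was -0.01, against -0.13 for all genes tested. No gene was lower without W317, W318, W319, W320, W133, W156, KO320, KO52, KO53, KO54 or KO56 in turn, and none was higher without W317, W318, W133 or KO53.

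Of the synthesis list, 18 of 19 genes were tested, none was lower and 2 rose, both of them acting on the bile acid side chain. *Slc27a2*, which activates very long chain fatty acids and bile acid intermediates with coenzyme A, rose from 560 ± 58.1 to 672 ± 32.1 FPKM (log2 fold change 0.27, adjusted p = 0.0337). *Amacr*, the racemase that turns the side chain into the form that peroxisomes shorten, rose from 44.8 ± 2.23 to 56.4 ± 8.34 FPKM (0.32, adjusted p = 0.0281), and every *Gpr180*KO liver (49.6 FPKM or more) lay above the highest WT liver (48.3). The most abundant other genes of the list did not pass, *Scp2*, a peroxisomal thiolase and sterol carrier, at 0.08 (adjusted p = 0.522) and *Akr1c6*, an aldo-keto reductase, at 0.02 (adjusted p = 0.915). At an unadjusted p under 0.05, 4 genes were higher and none lower, beside 275 and 2128 of all 10835 genes tested.

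Of the transport list, 14 of 17 genes were tested. *Abcg5*, a subunit of the sterol exporter that sends cholesterol into bile, rose from 31.9 ± 7.57 to 58.2 ± 24.3 FPKM (0.80, adjusted p = 0.0293). Its partner *Abcg8*, named after its values were seen, was 26.0 ± 7.74 and 48.6 ± 23.97 FPKM (0.81, adjusted p = 0.0520). *Abcb1a*, a drug efflux pump, fell from 1.72 ± 0.389 to 1.06 ± 0.364 FPKM (-0.69, adjusted p = 0.0446), near the filter on low values. *Slco1b2*, the most abundant organic anion uptake carrier of the list, was at -0.05 (adjusted p = 0.793), and the canalicular and basolateral exporters *Abcc2* and *Abcc3* were at -0.30 and -0.36 (adjusted p = 0.504 and 0.308). *Slco1a1*, an uptake carrier also named after its values were seen, had the largest difference of the 3 lists, 1.46 ± 0.55 (SE), and did not pass (adjusted p = 0.124).

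Of the regulation list, 17 of 20 genes were tested, and none passed in limma in either direction, with none at an unadjusted p under 0.05. *Hnf4a*, a hepatocyte transcription factor, was 119 ± 17.1 and 112 ± 21.6 FPKM (adjusted p = 0.607). *Insig2*, which retains the sterol sensor of the SREBP pathway in the endoplasmic reticulum, was at 0.05 (adjusted p = 0.887) and *Osgin1* at -0.11 (adjusted p = 0.706). *Fgf15*, the intestinal hormone that reports bile acids to the liver, also named after its values were seen, was listed at 0 in every liver.

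**Figure D5:**
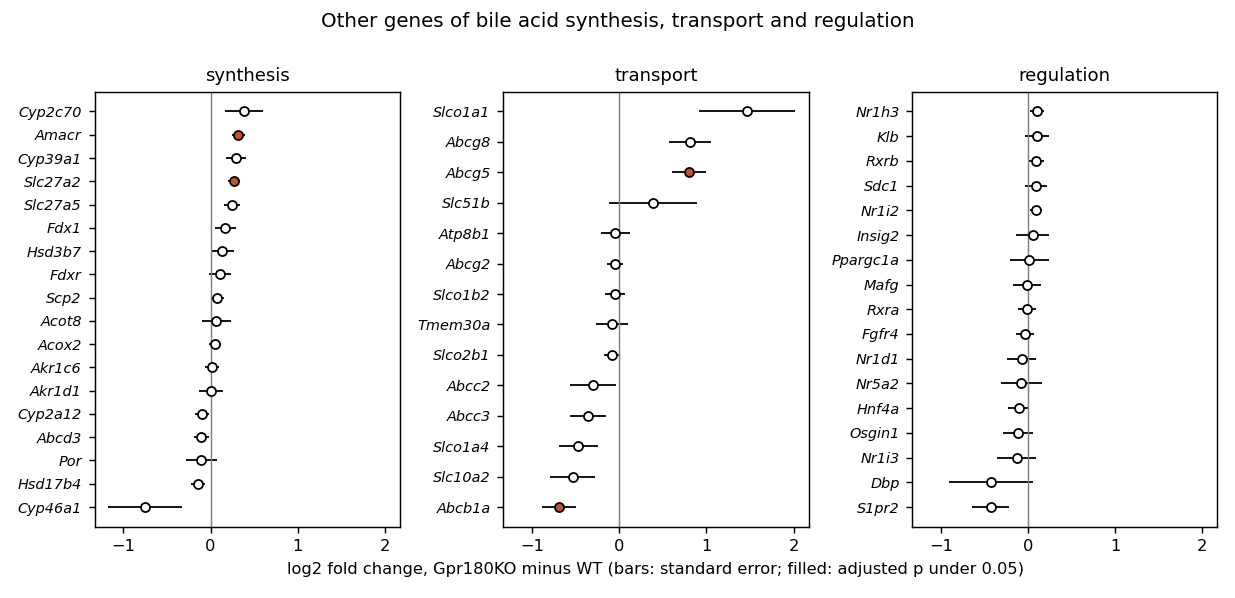
Log2 fold change (x axis, *Gpr180*KO minus WT, bars for the SE) of the 49 tested genes of the synthesis, transport and regulation lists, sorted within each list, with filled points for an adjusted p under 0.05. Filled points are *Amacr* and *Slc27a2* in synthesis and *Abcg5* and *Abcb1a* in transport, and none in regulation.

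Markers of other liver cells were counted in the same comparison, where 4.28% of all genes tested were lower and 0.452% higher. At an unadjusted p under 0.05 in limma, 2128 of the 10835 genes were lower and 275 higher. Of the 7 cholangiocyte markers 3 were tested and 2 were lower, *Spp1* (-1.96, adjusted p = 0.00701) and *Sox9* (-0.70, adjusted p = 0.0454), and the summed level of the list was 47.9 to 232 FPKM in WT and 22.0 to 55.4 FPKM in *Gpr180*KO livers. The bile duct keratins *Krt7* and *Krt19*, *Epcam* and *Cftr* were below the filter in mean. Of 6 stellate cell markers 3 were lower (*Col1a1*, *Col3a1* and *Pdgfrb*), with sums of 17.1 to 93.6 and 11.3 to 31.8 FPKM. Of 6 macrophage markers 5 were tested and 1 was lower (*Cd68*), with sums of 124 to 253 and 139 to 201 FPKM. Of the 5 endothelial markers none passed (none at an unadjusted p under 0.05), with sums of 35.7 to 56.2 and 21.5 to 48.7 FPKM, and the 6 lymphocyte markers summed to 3.39 FPKM at most and were below the filter. Of 8 hepatocyte markers 7 were tested, *Alb* being left out for failed estimates, and none passed in limma (1 higher at an unadjusted p under 0.05), with sums of 17205 to 22045 and 19833 to 33107 FPKM. In whole liver, fewer cells of a type and less RNA per cell cannot be told apart, and the part of cell makeup in the differences of the bile acid genes was not tested.

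Among all genes tested, those whose log2 levels followed each hydroxylase most closely over the 18 livers were listed as a description. Both genes of a pair were read from the same library in each liver, and genotype adds to r, so r after subtracting genotype means is given second. For *Cyp7a1* they were *Alas1*, the first enzyme of heme synthesis (r = 0.88 and 0.87), the anion channel subunit *Lrrc8a* (0.87 and 0.85) and *Stxbp6* (0.86 and 0.82). For *Cyp8b1* they were the cholesterol 24-hydroxylase *Cyp46a1* (0.96 and 0.95), *Trip6* (0.94 and 0.95) and the pyruvate carboxylase *Pcx* (0.94 and 0.93). Without KO53 and KO54 the first r of each fell to between 0.85 and 0.90. *Cyp46a1*, itself in the synthesis list, averaged 1.23 FPKM, near the filter on low values, and its Spearman's rho was 0.73. For *Cyp27a1* they were the retinol carrier *Rbp4* (0.87 and 0.85), *Aspdh* (0.86 and 0.82) and *Aspg* (0.85 and 0.80). For *Cyp7b1* they were the glycolate oxidase *Hao1* (0.90 and 0.83) and the major urinary protein genes *Mup21* (0.88 and 0.79) and *Mup9* (0.86 and 0.78), whose near-identical copies can share reads, so that their levels are uncertain.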

How the data were processed

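Poly(A) RNA of 18 HFD livers was prepared with a TruSeq mRNA kit, sequenced as single reads and aligned by the authors to the mouse genome (GRCm38, mm10) with TopHat. The authors deposited FPKM values per gene, with no read counts. The methods describe the FPKM as output of the TopHat Alignment application, and its gene annotation is not given in the sources used here. Each table has 23847 entries. Entries of 1 symbol were summed, and 24 genes with a failed estimate were left out. The deposited bounds were not used as errors, since 104 of 180 member values lay above their own upper bound.

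Genes whose FPKM averaged 1 or more were compared on log2(FPKM + 0.1), a scale that understates changes of low genes, with limma 3.58.1 in R 4.3.3 (lmFit, eBayes with trend, two-sided) and Benjamini-Hochberg adjustment over all genes tested. Steps were tested on simulated data. Each replicate is 1 mouse by its title. Other steps used Python 3.11.15 with matplotlib 3.10.9, scipy 1.17.1, pandas 2.3.3 and numpy 2.4.6.

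The members and gene lists were chosen with earlier results of these data known. The genes named were the members, every called gene and the 3 most abundant genes of each pathway list, the 3 genes most like each hydroxylase, *Gpr180* and the marker genes. *Abcg8*, *Slco1a1*, *Fgf15* and *Dbp* were named outside this rule, after their values were seen. Alternatives were 2 other pseudocounts, 3 other filters, 3 scalings, title style as a block or alone, eBayes without trend, and leaving out each liver.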

Additional observations from a re-analysis of the deposited data

Results flagged for a closer look

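There were 2 values that lay far from the other 8 livers of their group by Dixon's gap test, among 30 groups of 9 livers examined, a test that chance passes in about 1 in 20 groups. *Abcb11* in *Gpr180*KO livers was lowest in KO51, at a log2 of 6.46 (88.0 FPKM) against 7.23 to 7.65 in the other 8, a gap of 0.649 of the whole range. KO51 also had the highest FPKM sum (718746). *Abcb4* in WT livers was lowest in W157, at a log2 of 6.28 (77.4 FPKM) against 6.72 to 6.97 in the other 8, a gap of 0.646 of the range. The critical value for 9 livers is 0.493.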

How the results depend on the processing

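Over all genes, 464 lower and 49 higher genes became 147 and 146 with median-of-ratios scaling, 172 and 110 with 75th percentile scaling, 1031 and 122 with title style as a block, 1 and 0 in style 2 alone (1936 at an unadjusted p under 0.05 in either direction), and, without 1 liver, 113 to 843 and 16 to 89. Lower genes were 776 and 200 at FPKM minimums of 0.1 and 5. Higher genes were 303 with median-of-ratios scaling and the style block, and 116 in style 1 alone. The median log2 fold change of all genes was -0.01 with 75th percentile and -0.17 with TPM scaling, and 51.7% and 82.4% of genes had a lower mean.

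The 1 member lower (*Nr1h4*) became 0 with median-of-ratios scaling, alone or with the style block, with 75th percentile scaling and in either style alone, and 0 to 1 without 1 liver. The 1 member higher (*Cyp7b1*) became 0 at a minimum of 5, without a filter, with TPM scaling, in style 2 alone and in eBayes without trend, 2 with median-of-ratios scaling, alone or with the block (*Cyp7b1* and *Abcb11*), and 0 to 1 without 1 liver. Without KO51 the 1 is *Abcb11*. Pathway genes lower became 0 at a minimum of 5, without a filter, with median-of-ratios or 75th percentile scaling and in style 2 alone (0 to 1 without 1 liver), and pathway genes higher became 5 with median-of-ratios scaling or the style block, 8 with both, and 0 in style 2 alone (0 to 5 without 1 liver). The cause was not tested.

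*Cyp7b1*, *Nr1h4*, *Cyp7a1*, *Cyp8b1*, *Cyp27a1*, *Baat*, *Abcb11* and the route difference (-1.10 to -0.84 without 1 liver) kept their direction in every alternative run. The log2 fold change turned to -0.056 for *Slc10a1* in style 2, to 0.052, 0.020 and 0.052 for *Abcb4* and 0.053, 0.021 and 0.053 for *Nr0b2* with median-of-ratios, 75th percentile, and median-of-ratios scaling with the block, to 0.063 for *Abcb4* in style 1 and to 0.079 for *Nr0b2* in style 2. Without 1 liver *Nr0b2* ranged from -0.19 (without W133) to 0.050 (without KO322). Correlations turned to 0.18 (*Nr0b2* and *Cyp8b1*) and 0.19 (*Cyp7a1* and *Cyp8b1*) without the 2 farthest livers, to 0.020 (*Nr1h4* and *Nr0b2*) within style, and to 0.0038 (the same pair) and 0.14 (*Cyp27a1* and *Cyp7b1*) with median-of-ratios scaling.

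No paired analysis was made, since every library came from a different mouse and the labels link no WT mouse to a *Gpr180*KO mouse. Read totals were not used here, so the counting error of low genes is unknown.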

Other observations

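*Cyp7a1* and *Nr0b2* are known to vary over the day and with feeding, so 2 lists of such genes were counted. Of 12 core clock and clock output genes 10 were tested and none passed in limma (2 lower at an unadjusted p under 0.05), with a median log2 fold change of -0.20. Livers of 1 genotype could differ widely, for instance in the clock output gene *Dbp*, at 1.69 to 30.1 FPKM in WT and 2.00 to 16.4 FPKM in *Gpr180*KO livers. The count of calls therefore says little on the hour of sampling, whose effect was not tested. Of 8 genes of the fasting response 8 were tested and none passed (2 lower and 1 higher at an unadjusted p under 0.05), with a median of -0.19, against -0.13 for all genes tested. Over all 10835 genes tested, 2128 were lower and 275 higher at an unadjusted p under 0.05 in limma.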
